A study of Danio rerio with 6 samples.

Results

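The genes described here are p53 targets and apoptosis genes. They were listed by name as 34 gene symbols, with earlier results of these data known, and 32 are in the deposited table of 14781 genes. Their counts and shares, set below beside those of all genes, are therefore descriptive only. The symbols fas, a death receptor, and rps27l, a ribosomal protein-like p53 target, were not matched. The 32 genes fall into 6 groups by role, and the results below follow these groups.

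The transcription factor p53 is held at a low level by the ubiquitin ligase Mdm2 and its relative Mdm4, and is released when DNA is damaged or a cell is stressed. It then raises transcription of genes that stop the cell cycle, such as cdkn1a, and of some, not all, sestrin and GADD45 stress genes. It also raises pro-apoptotic genes such as bbc3 (Puma), pmaip1 (Noxa) and bax. Pro- and anti-apoptotic members of the BCL-2 family meet at the mitochondrion, where cytochrome c is released and, through Apaf1 and caspase 9, activates the executioner caspases. Photoreceptors do not divide, and p53 and apoptosis genes are known there mainly from degeneration and from the clearing of surplus cells during retinal development. Roles of single genes are given as known from mammals.

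RNA came from red-fluorescent cells that were sorted out of dissociated eyes of 5-dpf (days post-fertilization) zebrafish larvae. All larvae carried thrb:tdTomato, a reporter under control of thrb, the thyroid hormone receptor gene that marks red cones. The libraries labelled samd7-/- (n = 3) came from crosses in which both parents were homozygous for the stl888 allele of samd7, a Polycomb-family gene of photoreceptors, and the WT libraries (n = 3) from crosses of WT parents. Each library came from its own clutch and pooled the eyes of 20 to 25 larvae. Genotype and parental line cannot be told apart, and only some larvae of each clutch were genotyped, per the labels.

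Recovered reads per library were 18418834 to 20369266 in the libraries labelled samd7-/- and 13435570 to 18911482 in WT. The level of samd7 itself was 24329 ± 543 normalized counts in the libraries labelled samd7-/- and 7683 ± 896 in WT (SD, n = 3 each), higher and not lower under the mutant label, so the transcript level cannot serve as a check of the label. The sorted cells' defining gene, thrb, averaged 10677 ± 604 in the libraries labelled samd7-/- and 14152 ± 2052 in WT (log2 difference -0.40, adjusted p = 0.200). A normalized count is a read count divided by the authors' size factor for the library. All 13 measured cone markers were detected, and their summed level was 1226362 to 2119931 in the libraries labelled samd7-/- and 4035055 to 4211449 in WT, with 7 of 13 lower (arr3a, pde6h, grk7a, rcv1, opn1lw2, pde6c and gnat2) and the red opsin opn1lw1 higher (adjusted p under 0.05). Of all 9886 tested genes 3.90% were lower and 1.26% higher at that threshold. In sorted bulk samples, fewer cells of a type and less RNA per cell cannot be told apart. In the summed level of rod markers 1 library of each genotype stood apart. Library 3 labelled samd7-/- had 74854 against 24511 and 25802 in its group, and WT library 1 had 20517 against 82011 and 96399. Without library 3 labelled samd7-/- the same 4 genes named next were called, and without WT library 1 only gadd45ba was. Loss of calls was not particular to the libraries that stood apart. Without WT library 2, too, only gadd45ba was called. The number called was 2 without library 1 or 2 labelled samd7-/-, and 3 without WT library 3.

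Of the 32 genes, limma called 4 lower in the libraries labelled samd7-/- and 0 higher. The stress gene gadd45ba, the anti-apoptotic gene mcl1a, the p53 inhibitor mdm2 and the sestrin sesn1 fell. The arrest and growth genes cdkn1a, ccng1 and ccng2 did not pass. Under the authors' size factors the 95% intervals of these 3 lie within a 2-fold change either way. A filter on low values (10 normalized counts or more, in 3 or more of the 6 libraries) left 27 of the 32 genes, which were tested with limma. The 4 called genes are 14.8% of these 27, beside 3.90% of all 9886 tested genes called lower, 1.26% called higher and 5.17% called in either direction. With edgeR 4 were called, beside 4.36% of all genes. DESeq2 gave an adjusted p for 20 of the 27 and called 9, beside 15.6% of the 5668 genes with an adjusted p, or 8.93% of all 9886. An unadjusted p under 0.05 was found with limma for 12 of the 27, beside 19.1% of all tested genes. Among higher values, bcl2l10 and aifm1 had an unadjusted p under 0.05, and DESeq2 called bcl2l10. By the adjusted p of the authors' deposited table, 8 were under 0.05, beside 9.09% of all genes with a value there.

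The median log2 difference of the 27 genes was -0.35, beside 0.05 for all tested genes, and 20 of the 27 (74.1%) lay below 0, beside 47.6% of all genes. The genotypes did not overlap for 13 of the 27 genes, beside 24.5% of all tested genes. Of these 13, 11 were lower in the libraries labelled samd7-/-, beside 12.4% of all genes, and 2 were higher, beside 12.1%. When libraries were scaled to equal totals, the median of all genes moved up by 0.23, the median of the 27 became -0.12, and 1 gene was called lower (gadd45ba) and 1 higher (bcl2l10), beside 6.75% of all genes. Over all genes the split of calls then turned to 415 higher and 252 lower, against 125 higher and 386 lower under the authors' scaling. The differences below are thus relative to the authors' size factors.

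**Figure D1:**
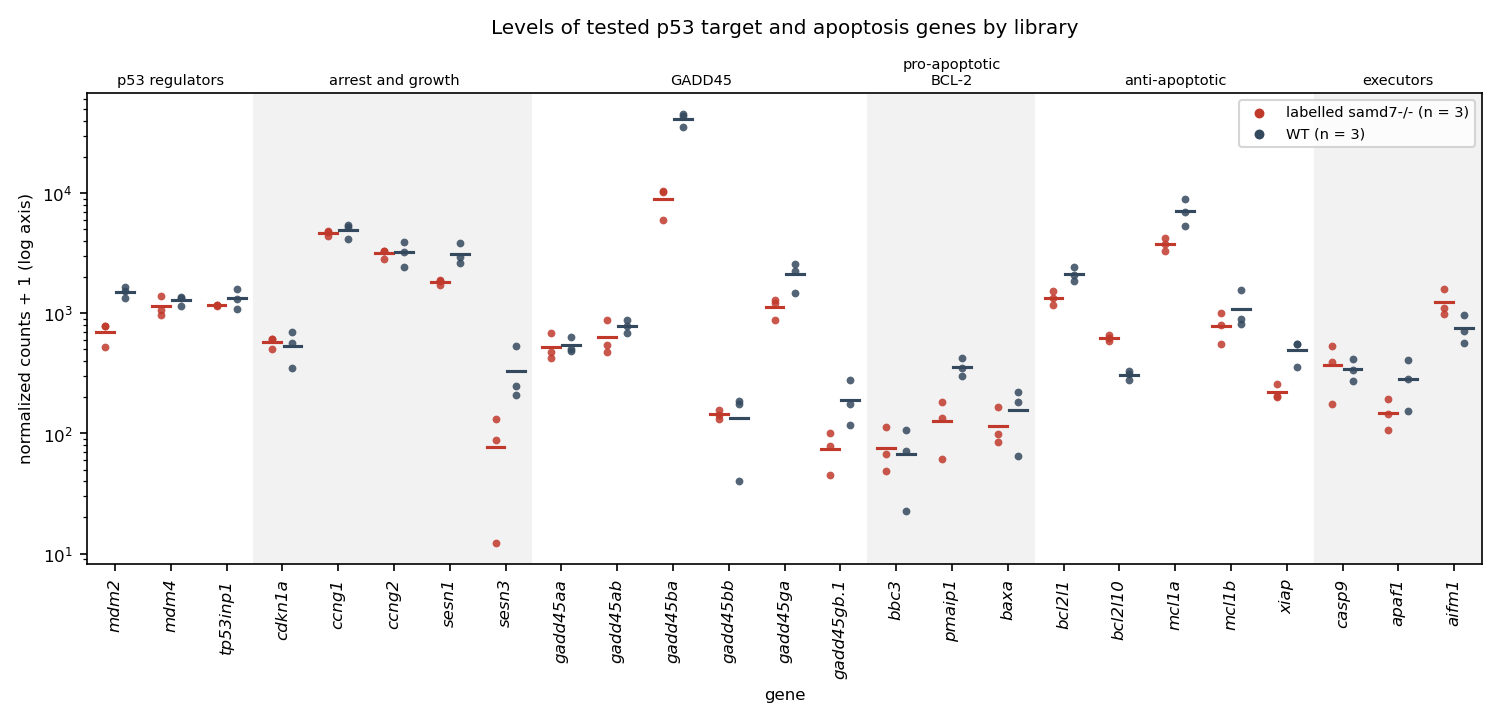
Normalized counts plus 1 on a log axis for tested genes, ordered by role, in libraries labelled samd7-/- (red, left of each pair) and WT (dark, right). Points are libraries (n = 3 per genotype) and bars are means; gadd45ba shows the widest gap among genes with high levels, while ccng1, ccng2 and gadd45aa sit at the same height in both genotypes.

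**Figure D2:**
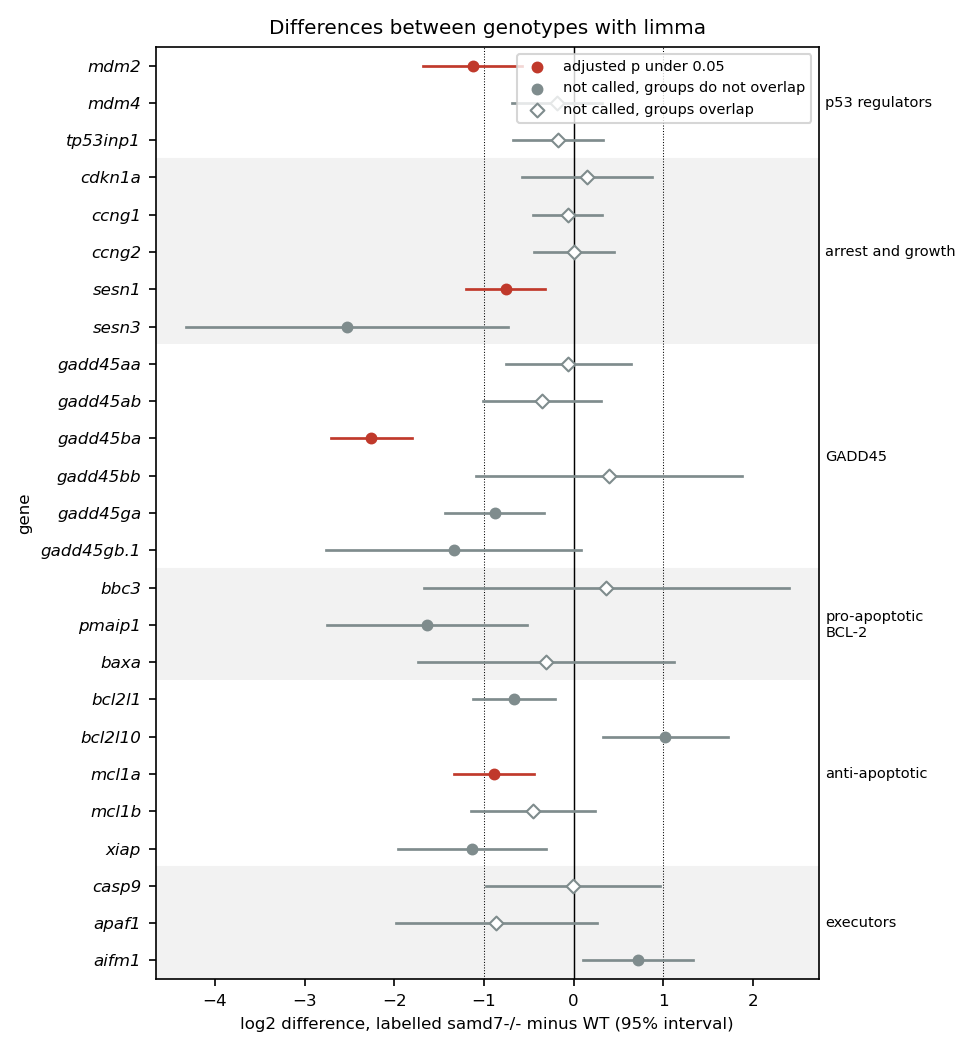
Log2 differences, labelled samd7-/- minus WT, with 95% intervals from limma for tested genes (n = 3 per genotype). Red marks the 4 genes with an adjusted p under 0.05, filled grey the uncalled genes whose genotypes do not overlap, and open diamonds the genes whose genotypes overlap; dotted lines mark a log2 difference of 1 either way.

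Among the regulators of p53, mdm2 fell and the other genes did not pass. Mdm2 is both the main ubiquitin ligase of p53 and a transcriptional target of it. Its level in libraries 1 to 3 was 523, 784 and 789 normalized counts under the samd7-/- label, against 1529, 1331 and 1663 in WT. Every library labelled samd7-/- was below every WT library. The means were 699 ± 152 in the libraries labelled samd7-/- and 1507 ± 167 in WT, 2.16-fold lower, with a log2 change of -1.13 (SE 0.26, adjusted p = 0.0212). Over the alternatives the adjusted p of mdm2 ranged from 0.00149 to 0.195. It missed the threshold without library 1 labelled samd7-/- (0.0901), without WT library 1 (0.0782), 2 (0.0573) or 3 (0.0834), under library totals (0.0633) and without limma's trend and robust options (0.195).

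The relative mdm4, which binds p53 without degrading it, had 1073, 1387 and 968 in the libraries labelled samd7-/- and 1351, 1158 and 1352 in WT, and the genotypes overlapped. Its log2 difference was -0.18 (95% interval -0.69 to 0.32, adjusted p = 0.736). The stress-induced p53 cofactor tp53inp1 had 1181, 1162 and 1143 in the libraries labelled samd7-/-, close together, and 1594, 1307 and 1078 in WT. Its log2 difference was -0.17 (95% interval -0.67 to 0.33, adjusted p = 0.750). The intervals of both exclude a 2-fold change.

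The share of mdm2 in the summed normalized counts of mdm2 and mdm4 does not depend on library scaling. This share partly restates the lower level of mdm2. It was 32.8%, 36.1% and 44.9% in the libraries labelled samd7-/- and 53.1%, 53.5% and 55.1% in WT. The mean share was 37.9% ± 6.26 in the libraries labelled samd7-/- and 53.9% ± 1.093 in WT, without overlap, with a two-sided exact permutation p of 0.1, the smallest that 3 against 3 libraries allow. This was 1 of 5 such shares compared, each chosen after its values were seen, and the adjusted p was 0.167.

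Among the genes tied to arrest and growth control, sesn1 fell, and cdkn1a and both cyclin G genes did not differ detectably. Sestrin 1 restrains the growth kinase mTORC1 under stress. Its level was 1709, 1865 and 1894 in the libraries labelled samd7-/-, against 2602, 3831 and 2934 in WT, without overlap. It averaged 1823 ± 99.4 in the libraries labelled samd7-/- and 3122 ± 636 in WT, with a log2 change of -0.76 (SE 0.20, adjusted p = 0.0477). This call lay near the threshold, with an adjusted p between 0.00516 and 0.278 across the alternatives. It was lost without library 1 (0.156) or 2 (0.0954) labelled samd7-/-, without WT library 1 (0.0587), 2 (0.228) or 3 (0.0980), without a filter on low values (0.0703), with the replicate block (0.0674), without limma's trend and robust options (0.278) and under library totals (0.166).

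Its relative sesn3, also a target of FOXO factors, had 131, 86.7 and 11.3 in the libraries labelled samd7-/- and 534, 248 and 206 in WT. The genotypes did not overlap, but the libraries of each differed widely, and the log2 difference of -2.53 did not pass (SE 0.84, 95% interval -4.32 to -0.74, adjusted p = 0.108). Without library 3 labelled samd7-/-, the lowest, the log2 difference of sesn3 was -1.49 (adjusted p = 0.171).

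The cyclin-dependent kinase inhibitor cdkn1a (p21) had 500.4, 610.3 and 606 in the libraries labelled samd7-/- and 559, 693 and 349 in WT. The WT libraries enclosed all 3 of the others. Its log2 difference was 0.15 (95% interval -0.57 to 0.87, adjusted p = 0.862). Cyclin G1, ccng1, a p53 target that feeds back on Mdm2, had 4846, 4779 and 4394 in the libraries labelled samd7-/- and 5171, 4173 and 5424 in WT, with a log2 difference of -0.07 (95% interval -0.45 to 0.31, adjusted p = 0.884). Cyclin G2, ccng2, averaged 3160 ± 270.4 in the libraries labelled samd7-/- and 3209 ± 754 in WT (log2 difference 0.00, 95% interval -0.45 to 0.45). For these 3 genes the interval under the authors' size factors excludes a 2-fold change in either direction.

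The stress genes of the GADD45 family, which bind cell cycle and kinase signalling proteins, were led by gadd45ba. Its level was 10414, 5993 and 10169.7 in the libraries labelled samd7-/-, against 43367, 45194 and 35213 in WT. The lowest WT library was thus well above the highest of the others. The means were 8859 ± 2485 in the libraries labelled samd7-/- and 41258 ± 5314 in WT, 4.66-fold lower, with a log2 change of -2.25 (SE 0.21, 95% interval -2.71 to -1.80, adjusted p = 3.20e-05). This call held with each library left out (log2 changes -2.39 to -1.99, adjusted p up to 0.00110) and under library totals. It was lost in 1 of 15 alternatives, limma without its trend and robust options (0.109), over a range from 7.34e-23.

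Of the other 5 GADD45 genes none passed. The neural gene gadd45ga had 1287, 1212 and 881 in the libraries labelled samd7-/- and 2579, 2247 and 1475 in WT. The genotypes did not overlap, with a log2 difference of -0.88 (SE 0.26, 95% interval -1.43 to -0.33, adjusted p = 0.0697). Its adjusted p ranged from 0.0162 to 0.311 and was under the threshold with DESeq2, with the replicate block (0.0446) and without WT library 3 (0.0356). The lowly measured gadd45gb.1 had 99.9, 76.9 and 44.5 in the libraries labelled samd7-/- and 117, 276 and 176 in WT, also without overlap (95% interval of the log2 difference -2.76 to 0.08, adjusted p = 0.296). The damage-inducible gadd45aa averaged 526 ± 136 in the libraries labelled samd7-/- and 539 ± 78.3 in WT, with a log2 difference of -0.06 whose 95% interval ran from -0.75 to 0.64. The remaining genes gadd45ab and gadd45bb had log2 differences of -0.35 and 0.40, with overlap.

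The composition of the family largely restates the fall of gadd45ba, which made up most of the sum. It stood apart in a test that cannot reach 0.05. The share of gadd45ba in the summed normalized counts of the 6 genes was 78.7%, 69.7% and 83.0% in the libraries labelled samd7-/-, against 91.2%, 92.1% and 91.7% in WT. It averaged 77.1% ± 6.77 in the libraries labelled samd7-/- and 91.7% ± 0.442 in WT, without overlap (two-sided exact permutation p = 0.1, adjusted 0.167). The sum of the family was 11361 ± 2443 in the libraries labelled samd7-/- and 45002 ± 5774 in WT. The share of gadd45ga was 10.3% ± 3.49 in the libraries labelled samd7-/- and 4.61% ± 0.792 in WT. This share was higher under the samd7-/- label while the gadd45ga level itself was lower, though not called. How reads shared between paralogs were assigned is not stated, and shares are compared here between genotypes only.

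**Figure D3:**
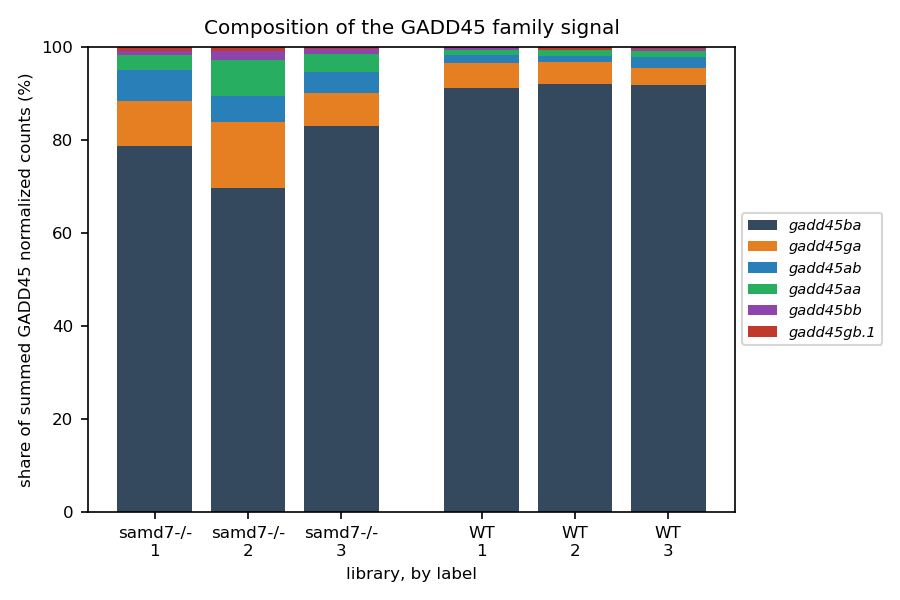
Share of each of the 6 GADD45 genes in their summed normalized counts, in percent, for each library labelled samd7-/- (left) and each WT library (right). The gadd45ba share is between 69.7% and 83.0% on the left and between 91.2% and 92.1% on the right.

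Of the pro-apoptotic BCL-2 family genes none passed with limma or edgeR, 1 of the 3 tested had an unadjusted p under 0.05, beside 19.1% of all genes, and DESeq2 called that 1. This was pmaip1 (Noxa), a BH3-only protein that binds Mcl1. Its level was 182, 133 and 60.2 in the libraries labelled samd7-/- and 350.0, 297 and 423 in WT, without overlap. The log2 difference was -1.63 (SE 0.52, 95% interval -2.75 to -0.52, adjusted p = 0.0949). Across the alternatives pmaip1 had an adjusted p between 0.0482 (DESeq2) and 0.250. The BH3-only gene bbc3 (Puma) had 66.1, 111 and 48.0 in the libraries labelled samd7-/- and 21.6, 70.2 and 106 in WT. The pore-forming gene baxa had 163, 83.7 and 98.5 in the libraries labelled samd7-/- and 183, 218 and 63.9 in WT. The genotypes overlapped for both, and the 95% intervals of the log2 differences were wide, -1.67 to 2.40 for bbc3 and -1.73 to 1.12 for baxa, so a 2-fold change of either was not detectable at this spread.

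Among the anti-apoptotic genes mcl1a fell, and 4 of the 5 had genotypes that did not overlap, beside 24.5% of all tested genes. Of these 4, 3 were lower in the libraries labelled samd7-/- and 1 was higher. Mcl1 is a short-lived guardian of the mitochondrion. The level of mcl1a was 4210.1, 3315 and 3744 in the libraries labelled samd7-/-, against 8934, 6956 and 5345 in WT. It averaged 3756 ± 448 in the libraries labelled samd7-/- and 7078 ± 1798 in WT, 1.88-fold lower, with a log2 change of -0.89 (SE 0.21, adjusted p = 0.0229). Its adjusted p ranged from 0.000542 to 0.276. The call was lost without library 2 labelled samd7-/- (0.0682), without WT library 1 (0.115) or 2 (0.0916), under library totals (0.0627) and without limma's trend and robust options (0.276). Its paralog mcl1b had 553, 1012 and 795 in the libraries labelled samd7-/- and 1573, 808 and 899 in WT, overlapping (log2 difference -0.45, 95% interval -1.14 to 0.23). The share of mcl1a in the sum of both was 82.5% ± 5.89 in the libraries labelled samd7-/- and 86.7% ± 2.48 in WT (exact permutation p = 0.4).

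The gene bcl2l10 lay on the other side, with higher values under the samd7-/- label. It encodes an anti-apoptotic relative of Bcl2, known in zebrafish as Nrz. Its level was 654, 591 and 619.9 in the libraries labelled samd7-/- and 329.5, 277 and 310.2 in WT. The libraries of each genotype lay close together, with means of 622 ± 31.5 in the libraries labelled samd7-/- and 306 ± 26.6 in WT, and did not overlap. The log2 difference was 1.02 (SE 0.32, 95% interval 0.33 to 1.72), and its adjusted p of 0.0924 missed the threshold. It passed with DESeq2 (0.0258) and under library totals (0.0391), and reached 0.245 without library 1 labelled samd7-/-.

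The gene bcl2l1 (Bcl-xL), the main guardian in many neurons, had 1326, 1534 and 1178 in the libraries labelled samd7-/- and 2444, 2098 and 1856 in WT, without overlap. Its log2 difference was -0.66 (SE 0.21, 95% interval -1.12 to -0.20, adjusted p = 0.101). The caspase inhibitor xiap had 198, 205 and 255 in the libraries labelled samd7-/- and 558, 559 and 354 in WT, without overlap (log2 difference -1.14, SE 0.39, adjusted p = 0.118). DESeq2 called both, with adjusted p of 0.0332 and 0.0416.

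The share of bcl2l10 in the summed normalized counts of bcl2l1, bcl2l10, mcl1a and mcl1b stood far apart between genotypes. This share was chosen after its values were seen. The level of bcl2l10 was itself higher under the samd7-/- label, and mcl1a and bcl2l1 in the sum were lower, each without overlap. The share thus largely restates these differences, and its separation and permutation p add no further support. The bcl2l10 share was 9.70%, 9.16% and 9.78% in the libraries labelled samd7-/- and 2.48%, 2.73% and 3.69% in WT. The mean share was 9.55% ± 0.339 in the libraries labelled samd7-/- and 2.97% ± 0.637 in WT (two-sided exact permutation p = 0.1, adjusted 0.167). The summed level of the 4 genes was 6511 ± 209 in the libraries labelled samd7-/- and 10609.7 ± 2470 in WT. With 1 library left out, the difference in share stayed between 6.34 and 6.94 percentage points.

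Of the caspases and their mitochondrial partners none passed with limma, edgeR or DESeq2, and 2 of the 5 tested had an unadjusted p under 0.05, 1 lower and 1 higher, beside 19.1% of all genes. The gene aifm1, for a mitochondrial flavoprotein that can carry a caspase-independent death signal, had 1106, 985 and 1591 in the libraries labelled samd7-/- and 569, 958 and 711 in WT, higher without overlap by a small margin (log2 difference 0.72, SE 0.29, adjusted p = 0.180). The initiator casp9 had a log2 difference of -0.01 (95% interval -0.98 to 0.96), with 174, 394 and 536 in the libraries labelled samd7-/- and 415, 271 and 334 in WT. The apoptosome scaffold apaf1 averaged 148 ± 44.1 in the libraries labelled samd7-/- and 282 ± 128 in WT, overlapping (log2 difference -0.86, adjusted p = 0.415).

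The 5 genes that did not enter the test were near or at 0. The sestrin sesn2 had 5, 148 and 0 reads in the libraries labelled samd7-/- and 10, 0 and 0 in WT, so that 1 library held nearly all of them. The Akt-inhibiting p53 target phlda3 had 7, 43 and 0 reads in the libraries labelled samd7-/- and 0 in every WT library, so that library 2 held most of them. The bax paralog baxb had 0 reads in every library labelled samd7-/- and 14, 29 and 0 in WT, where library 3 had none either. The death-receptor caspase casp8 had 10, 14 and 0 reads in the libraries labelled samd7-/- and 0, 0 and 7 in WT. The BH3-only gene bcl2l11 (Bim) had 3 reads in library 2 labelled samd7-/-, 2 reads in WT library 1 and 0 in the other 4 libraries. A count of 0 allows up to 3 reads in that library by counting error alone, and no fold is given for these genes.

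**Figure D4:**
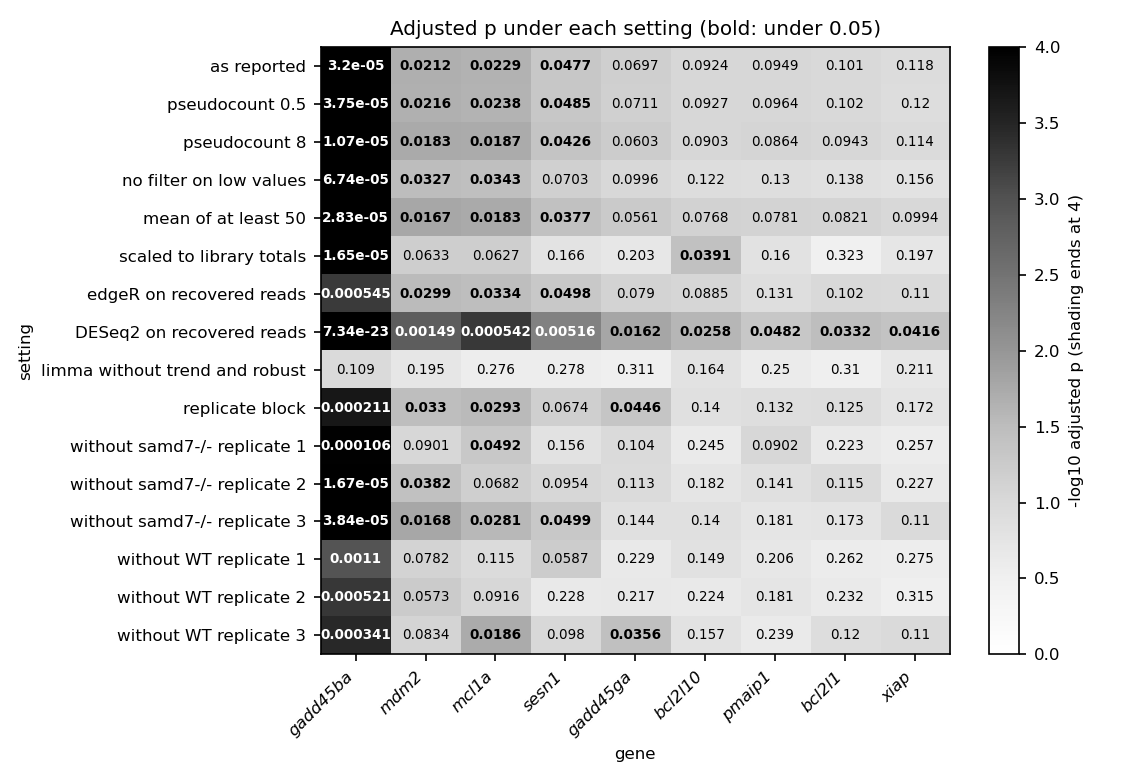
Adjusted p of the 9 genes called in at least 1 setting (columns) under the fit as reported and 15 alternatives (rows), with values under 0.05 in bold and shading by -log10 adjusted p. The gadd45ba column is bold in every row but limma without trend and robust options, while mdm2, mcl1a and sesn1 lose the call in several rows that leave out 1 library.

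The libraries of a genotype differed among themselves by much the same amount under both labels. The median coefficient of variation over the 27 tested genes was 25.9% in the libraries labelled samd7-/- and 23.5% in WT. It was as low as 1.62% for tp53inp1 and 5.08% for bcl2l10, and as high as 79.3% for sesn3, in the libraries labelled samd7-/-. Library 3 labelled samd7-/- held the lowest value of its group for 12 of the 27 genes, among them sesn3, pmaip1 and gadd45ga, and WT library 3 held the lowest of its group for 13.

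The wider p53 network was read through related lists. The p53 relative tp63, known from basal epithelium, had 38.8, 12.0 and 49.7 normalized counts in the libraries labelled samd7-/- and 439, 107 and 121 in WT, without overlap (log2 difference -2.60, adjusted p = 0.134). The relative tp73 had 0 reads in all 6 libraries, and tp63 did not pass. It was called in 0 of the 14 alternatives that gave tp63 an adjusted p, while the authors' deposited adjusted p was 0.0191. Of 36 other p53 targets and modifiers tested 2 fell and 0 rose, beside 3.90% of all tested genes called lower and 1.26% called higher. DESeq2 called 4 of the 36, beside 8.93% of all tested genes. With limma 10 had an unadjusted p under 0.05, beside 19.1% of all genes. The list median was -0.20, or 0.03 under library totals. The FOXO transcription factor foxo3b had 2768, 2939.6 and 3726 in the libraries labelled samd7-/-, against 8458, 9614 and 7714 in WT (log2 change -1.46, SE 0.18, adjusted p = 0.000414), and was called with each library left out. The cell death-inducing p53 target cdip1 averaged 607 ± 118 in the libraries labelled samd7-/- and 1298 ± 308 in WT (log2 change -1.09, adjusted p = 0.0364). With 1 library left out that call held in 1 of 6 settings, without library 3 labelled samd7-/- (0.0223), and the other adjusted p lay between 0.0668 and 0.187.

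Of 44 other apoptosis genes tested 3 fell and 0 rose, beside 3.90% of all tested genes called lower and 1.26% called higher. DESeq2 called 6 of the 44, beside 8.93% of all tested genes. With limma 9 had an unadjusted p under 0.05, beside 19.1% of all genes. The list median was -0.04, or 0.19 under library totals. The Fas-inhibitory gene faimb had 2271, 2927 and 3272 in the libraries labelled samd7-/-, against 6089, 5835 and 6051 in WT (log2 change -1.10, SE 0.19, adjusted p = 0.00348), and was called with each library left out. The Hsp70 co-chaperone bag3 averaged 491 ± 147 in the libraries labelled samd7-/- and 2019 ± 1042 in WT (log2 change -1.92, adjusted p = 0.0125). The pro-apoptotic BCL-2 relative bokb averaged 227 ± 106 in the libraries labelled samd7-/- and 799.7 ± 219 in WT (log2 change -1.90, adjusted p = 0.0183). The call of bag3 was lost without WT library 1 (0.0751) or 2 (0.0715). The call of bokb was lost without library 1 labelled samd7-/- (0.0623) and without WT library 1 (0.103) or 3 (0.0513). Of the 3 that fell, bokb is known to promote cell death, and faimb and bag3 to restrain it. Of 35 DNA damage and repair genes tested 0 were called by limma, edgeR or DESeq2, 5 had an unadjusted p under 0.05, beside 19.1% of all genes, and the median was 0.22.

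**Figure D5:**
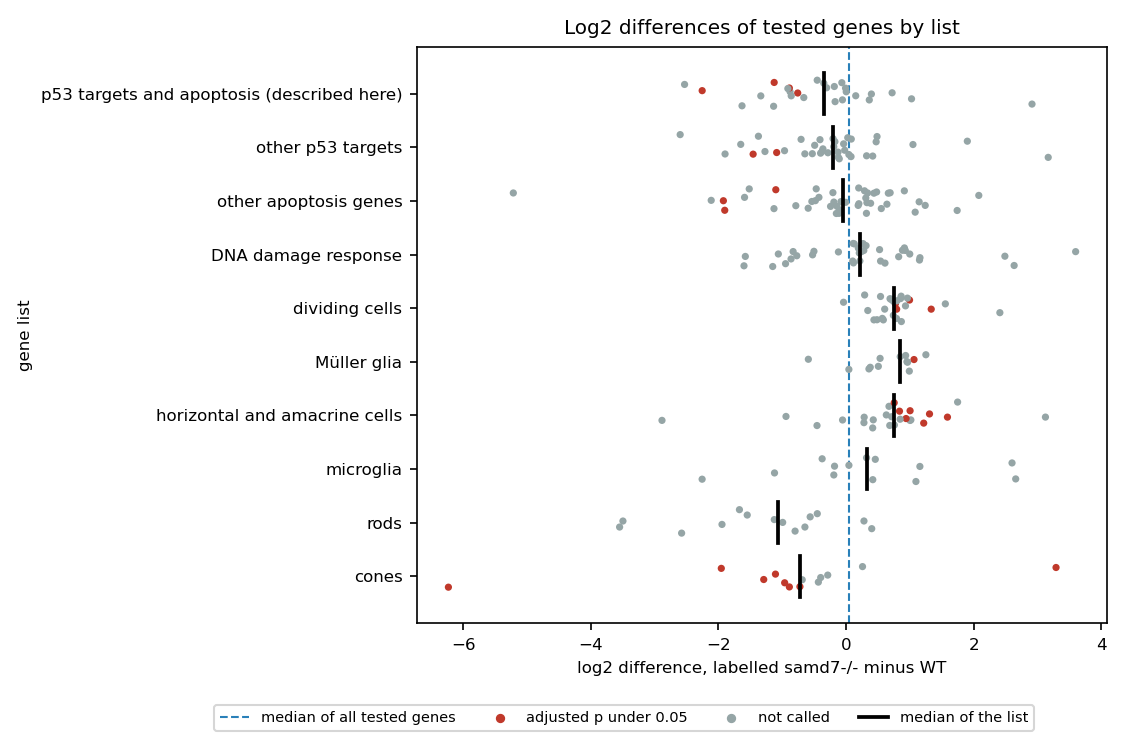
Log2 differences, labelled samd7-/- minus WT, of the tested genes of each list (points, red where the adjusted p is under 0.05), with the list median (black bar) and the median of all 9886 tested genes (dashed line at 0.05). The p53 target and apoptosis genes center at -0.35, dividing-cell, Müller glia and horizontal and amacrine lists between 0.75 and 0.85.

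Some markers of other cells that the sort could hold moved with genotype in the same libraries. Sums of the dividing-cell, horizontal and amacrine, and Müller glia lists were higher under the samd7-/- label without overlap. Those of microglia and rods overlapped. Separated sums were not particular to cell markers. The DNA damage list summed to 8259 to 9686 in the libraries labelled samd7-/- and 5850 to 7083 in WT. Sums of the other p53 targets were lower, 57540 to 63957 under the samd7-/- label against 74457 to 80126 in WT. Those of the other apoptosis genes were 66535 to 76035 under the samd7-/- label against 81603 to 84152 in WT. The counts below stand beside 1.26% of all tested genes called higher and 3.90% called lower. DESeq2 called 8.93% of all tested genes, and 19.1% had an unadjusted p under 0.05 with limma. Of 26 genes listed for dividing cells 4, tubb2b, aurkb, top2a and mki67, were higher (median 0.76). DESeq2 called 10 of the 26, and 19 had an unadjusted p under 0.05 with limma. Summed levels were 105472 to 120445 in the libraries labelled samd7-/- and 71717 to 81884 in WT. The tubulin gene tubb2b is not specific to dividing cells. It is part of these sums, with means of 25467 in the libraries labelled samd7-/- and 14806 in WT. Of 25 horizontal and amacrine markers 7, tfap2b, barhl2, onecut1, pax6b, isl1, pax6a and cx52.9, were higher (median 0.75), with sums of 43826 to 49585 in the libraries labelled samd7-/- and 27894 to 36562 in WT. DESeq2 called 8 of the 25, and 13 had an unadjusted p under 0.05 with limma. Of 13 Müller glia markers tested 1, glula, was higher (median 0.85), with sums of 78632 to 158861 in the libraries labelled samd7-/- and 41501 to 73722 in WT, and slc1a3b was at 0. DESeq2 called 4 of the 13, and 5 had an unadjusted p under 0.05 with limma. Of 13 microglia markers tested 0 were called by limma, edgeR or DESeq2 and 0 had an unadjusted p under 0.05, with sums of 12724 to 14918 in the libraries labelled samd7-/- and 10197 to 16701 in WT, and no marker was at 0 in all libraries. Of 14 rod markers 0 were called by limma or edgeR, 1 by DESeq2, and 3 had an unadjusted p under 0.05 (median -1.06), with sums of 24511 to 74854 in the libraries labelled samd7-/- and 20517 to 96399 in WT. No marker of the dividing, horizontal and amacrine or rod lists was at 0 throughout. The part of these cells, and of the lower cone marker level, in the differences of gadd45ba, mcl1a, mdm2 and sesn1 was not tested.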

How the data were processed

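RNA-seq of thrb:tdTomato-positive eye cells was analysed in 6 libraries, 3 per genotype. The labels give 10000 to 25000 cells, 300 pg of RNA and RNA integrity numbers of 7.4 to 8.4. They also give 14 amplification cycles for cDNA and 15 for the library. The part of this low input in values near 0 was not tested. The submitters' processing notes list R 4.1.3, DESeq2 1.34.0, HTSeq 0.9.1, STAR 2.7.2b, Trim Galore 0.6.1 and danRer10. No source used here gives the annotation, the strand setting or the handling of reads shared between paralogs, so the split of reads within gene families is uncertain. The deposited library columns hold a signal, read counts divided by a size factor, as do the authors' mean columns. Within a library 100% of values above 0 were whole multiples of 1 step to within 0.01 read, so whole reads were recovered. The deposited log2 fold changes and adjusted p-values are the authors' and are quoted only where named.

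Symbols were used as deposited. The 32 genes matched NCBI identifiers in a table whose build differs, so no coordinates are given. Limma 3.58.1 (R 4.3.3, trend and robust options, genotype the only term) was fitted to log2(value + 1) of the 9886 genes that passed the filter on low values, with Benjamini-Hochberg adjustment over all of them and a threshold of 0.05. Log2 differences are on that scale, where the added 1 pulls those of low genes toward 0. They are differences of mean logs, so where libraries spread widely they can also exceed the log2 ratio of means. For sesn3 the difference was -2.53, beside the authors' log2 fold change of -2.11. Folds are ratios of mean normalized counts. Alternatives on the recovered reads were edgeR 4.0.16 (quasi-likelihood) and DESeq2 1.42.0. The fit was also run on simulated counts in which genes of higher level were changed in random directions. That setting lacks the uneven split of calls and the low-level members of these data, so no conclusion is drawn from it. Shares used exact permutation tests (SciPy 1.17.1). Of 316 genes asked in 9 related lists, 68 were not matched. Members, lists and tests were chosen with earlier results of these data known. Tests of family shares and some of the alternatives were added after the values were seen. Values of every library are given for called members, those without overlap, those with a log2 difference of at least 1 and the highest of each role group. Some other members were given in full after their values were seen. Of the related lists, called genes and the p53 family are named. A few genes that these rules cover are not reported here, though counts and medians include them.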

Additional observations from a re-analysis of the deposited data

How the results depend on the processing

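The direction of the 4 called genes (gadd45ba, mcl1a, mdm2, sesn1) was kept in all 15 alternatives. Their genotypes did not overlap, so leaving out 1 library could not have turned it. The number of p53 target and apoptosis genes called was 4 as reported, 4 with edgeR, 9 with DESeq2 and 2 under library totals. With limma without trend and robust options it was 0, and 27 of all genes were called. In that setting 12 of the 27 tested members had an unadjusted p under 0.05, beside 14.8% of all genes. DESeq2 called 883 of all genes, beside 511 as reported. With 1 library left out the number ranged from 1 to 4, and over all genes from 225 to 573. The median log2 difference of the 27 genes was -0.12 under library totals and ranged from -0.59 to -0.29 with 1 library left out. The causes were not tested. Same-numbered libraries did not deviate together (correlations 0.0456, -0.0338 and 0.0115), so the numbers are not taken as pairs. With the replicate number as a block 4 of these genes and 431 of all genes were called, with gadd45ga (adjusted p = 0.0446) gained and sesn1 (0.0674) lost. The number of genes without overlap was 10 under library totals (26.2% of all genes) and between 13 and 18 with 1 library left out (32.6% to 36.6% of all genes, 2 libraries against 3), both added after the data were seen. Low read counts limit statements on casp8, sesn2, phlda3, baxb and bcl2l11, which had at most 43 reads in any library apart from 148 of sesn2 in library 2 labelled samd7-/-.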
